A study of Sus scrofa with 30 samples.

Results

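The miR-181 family of circulating microRNAs (miRNAs) was followed in the plasma of lethally irradiated Göttingen minipigs. Its members were taken as the rows of the deposited count table named ssc-miR-181 with any further letter or arm, and 5 of 411 pig (ssc) miRNAs met that rule. They were ssc-miR-181a, ssc-miR-181b, ssc-miR-181c and the products of both arms of one hairpin, ssc-miR-181d-5p and ssc-miR-181d-3p. The animals were 3 male minipigs about 4 months old, all of which received a single total body irradiation (TBI) of 2.2 Gy from a cobalt source, so that no unirradiated animal ran in parallel. They belonged to the vehicle arm of a countermeasure trial, received dextrose under the skin, were bled under isoflurane, and none survived. Ciprofloxacin and amoxicillin with clavulanate were to be given by mouth when neutrophil counts were low. The days of that treatment are not given in the sources used here, so it cannot be told apart from time since TBI. Plasma was drawn 7 days (C7) and 1 day (C1) before TBI, 6 hours after it (0d), and on 7 later days up to 20d, each draw being named for the days since TBI. The study grouped the draws into phases, chosen on a principal component plot of these same libraries, with C7 and C1 as pre-TBI and the draws up to 7d as Early. Those at 10d and 14d made up Mid, that at 17d was Late, and that at 20d was LR, for late regression.

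Mature miRNAs guide the silencing complex to messenger RNAs through the seed near their 5′ end. The miR-181 seed, shown because every 5p member of the family is defined by it, is given here as it was listed for miR-181a-5p, 5′ to 3′ and all in capitals.
miR-181a-5p seed: ACAUUCA
The family is abundant in thymus and other lymphoid tissue, where miR-181a is known to tune the response of the T cell receptor and to favour lymphoid development, and it is also expressed in brain and other tissues. Its hairpins lie in pairs. In the RefSeq annotation of Sscrofa11.1, 6 loci carried the number, and MIR181A-1 neighboured MIR181B-1, MIR181A-2 neighboured MIR181B-2 and MIR181C neighboured MIR181D. The deposited names do not tell the copies of miR-181a or of miR-181b apart. The 5p members are close to identical in sequence, and how reads shared between them were assigned is not given in the sources used here, so the split of counts between members is uncertain.

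Depth limited the later phases. Of 30 libraries, 24 held at least 1000 counts and were used, from 24341 to 550316 counts with a median of 240612. The 6 left out, with 0 to 17 counts, were all of minipig 3 from 3d onwards, so that Mid, Late and LR rested on minipigs 1 and 2. Late and LR held 2 libraries each, Mid 4, Early 10 and pre-TBI 6. Within a library, log2(ssc-miR-451/ssc-miR-23a), a common index of red cell lysis, was 1.12 ± 1.74 (SD, n = 6) pre-TBI, −0.75 ± 0.69 (n = 4) in Mid, −0.30 and −1.46 in Late and 1.72 and 0.04 in LR. Its part in the results was not tested. In plasma, more releasing cells and more miRNA released per cell cannot be told apart.

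Before irradiation ssc-miR-181a was the highest member on average. On the log2 scale of counts per 1e6 (log2 CPM, scaled by the trimmed mean of M values, TMM), the pre-TBI levels were 11.35 ± 0.35 for ssc-miR-181a, 10.69 ± 0.26 for ssc-miR-181d-3p, 9.68 ± 0.79 for ssc-miR-181c, 9.67 ± 0.18 for ssc-miR-181b and 9.31 ± 0.28 for ssc-miR-181d-5p (SD, n = 6 libraries of 3 animals). The ranges of ssc-miR-181a (10.68 to 11.64) and ssc-miR-181d-3p (10.41 to 11.00) overlapped, as did those of the last 3. In minipig 1 at C1, ssc-miR-181d-3p (244 counts) and ssc-miR-181c (201 counts) exceeded ssc-miR-181a (196 counts). Within libraries ssc-miR-181b exceeded ssc-miR-181d-5p in all 6 (ratio of counts 1.08 to 1.60). By mean level over all 24 libraries, ssc-miR-181a ranked 66 of 411 and ssc-miR-181d-5p, the lowest of the family, ranked 197. Between the pre-TBI draws no member was called: C1 against C7 gave an adjusted p of 0.997 for each of the 5 in edgeR's quasi-likelihood test, and 0.73% of all 411 rows passed an unadjusted p of 0.05.

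**Figure D1:**
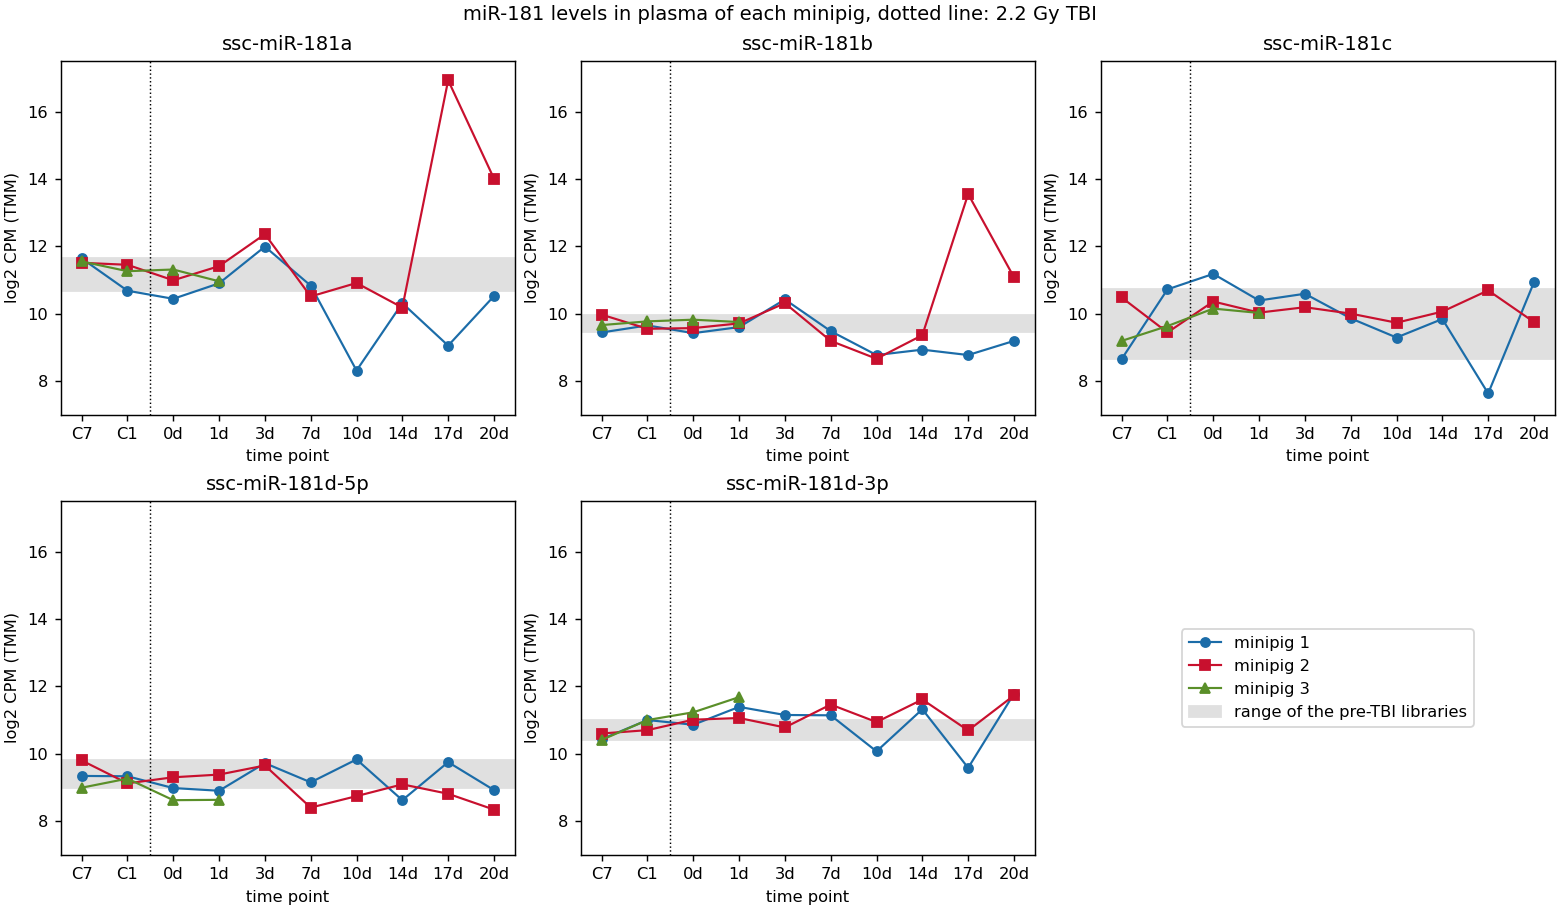
Level of each miR-181 member (log2 CPM, TMM-scaled) at every time point, 1 point per library and 1 line per minipig, with the range of the 6 pre-TBI libraries shaded and TBI dotted. At 17d ssc-miR-181a stood at 16.93 in minipig 2 and at 9.05 in minipig 1, on either side of the pre-TBI range, while ssc-miR-181d-3p stood above that range in both animals at 20d.

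The miR-181a and miR-181b rows moved together and differed most from baseline in one animal at the end of the series. At 17d and 20d both were far above their pre-TBI levels in minipig 2 and below them in minipig 1. Pre-TBI, ssc-miR-181a lay between 10.68 and 11.64 log2 CPM with a median of 11.48. In Late it was 16.93 in minipig 2 (7926 counts, 12.5% of that library) and 9.05 in minipig 1 (11 counts). In LR it was 14.01 in minipig 2 (11908 counts) and 10.52 in minipig 1 (489 counts). In each phase the pair of libraries thus straddled the whole pre-TBI range, and the share of all rows that did so was not counted. Against its own pre-TBI mean, ssc-miR-181a of minipig 2 was 43.7-fold higher at 17d and 5.79-fold higher at 20d, and that of minipig 1 was lower by 2.11 and 0.64 on the log2 scale.

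The companion ssc-miR-181b, whose hairpins adjoin those of miR-181a, had the same pattern at smaller size. Its pre-TBI levels were 9.44 to 9.97 log2 CPM with a median of 9.65. At 17d it was 13.55 in minipig 2 (762 counts) and 8.77 in minipig 1 (9 counts), and at 20d it was 11.08 (1552 counts) and 9.19 (193 counts). The rise over minipig 2's own pre-TBI mean was 13.8-fold at 17d and 2.49-fold at 20d. In both phases the values again lay on either side of the pre-TBI range, again without a count over all rows.

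In the fit over all libraries, both were called higher in Late than pre-TBI, at an adjusted p under 0.05 (Benjamini-Hochberg over 411 rows). The log2 fold change was 4.56 ± 0.86 (SE) for ssc-miR-181a and 2.93 ± 0.55 for ssc-miR-181b, each with an adjusted p of 0.00125 in edgeR's quasi-likelihood test. These were 2 of 5 members, where 3.89% of all rows were called higher. The calls rested on 1 library. Without minipig 2 at 17d the log2 fold changes were −2.34 (edgeR's quasi-likelihood test, adjusted p = 0.113) and −0.94 (adjusted p = 0.251), with the lone Late library, of minipig 1, assumed to vary like the other groups. Without both late libraries of minipig 2, at 17d and 20d, an omission chosen after seeing the data, ssc-miR-181a was called lower in Late (−2.63, edgeR's test, adjusted p = 0.0449) and ssc-miR-181b was at −1.23 (adjusted p = 0.0911), but 26.8% of all rows were called in that setting. Both calls were also lost when only Late and pre-TBI libraries entered the fit (4.56 and 2.94, edgeR's test, adjusted p = 0.115 and 0.125). In that fit 0% of all rows were called and 39 passed an unadjusted p of 0.05. With C7 alone as baseline neither was called (4.37 and 2.88, edgeR's test, adjusted p = 0.112 and 0.107), again with 0% of all rows called.

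Late against Mid, which does not use the baseline, gave 5.75 ± 1.05 for ssc-miR-181a (SE, edgeR's quasi-likelihood test, adjusted p = 0.00183) and 3.66 ± 0.64 for ssc-miR-181b (adjusted p = 0.00143), while 4.38% of all rows were called higher and 4.62% in either direction. Without minipig 2 at 17d these became −1.15 and −0.21, and with only Late and Mid libraries in the fit neither was called (5.81 and 3.73, edgeR's test, adjusted p = 0.296 and 0.274), nor was any other row (0%, with 29 at an unadjusted p under 0.05). In LR neither passed against pre-TBI over all libraries. The log2 fold changes were 1.76 ± 0.87 (edgeR's quasi-likelihood test, adjusted p = 0.593) and 0.74 ± 0.58 (adjusted p = 0.607), and 0% of all rows were called. Without minipig 2 at 20d the LR values were −1.09 and −0.73, and without any library of minipig 1 ssc-miR-181a was called higher (2.58, edgeR's test, adjusted p = 0.0391), from 1 LR library and with 1.46% of all rows called. From Late to LR, ssc-miR-181a differed by −2.80 ± 1.22 (edgeR's test, unadjusted p = 0.0316, adjusted p = 0.123) and ssc-miR-181b by −2.19 ± 0.77 (unadjusted p = 0.00883, adjusted p = 0.0961), with 0.73% of rows called and 20.4% lower at an unadjusted p under 0.05. DESeq2's Wald test called the second (−2.14, adjusted p = 0.0411) and 16.2% of all rows. Without minipig 2 at 17d the differences were 4.10, then called higher in LR (edgeR's test, adjusted p = 0.0162), and 1.68 (adjusted p = 0.0505), and without minipig 1 at 17d they were −3.86 and −3.22, then called lower (adjusted p = 0.0462 and 0.00322). Of all rows, 36.3% were called without the first library and 2.43% without the second.

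**Figure D2:**
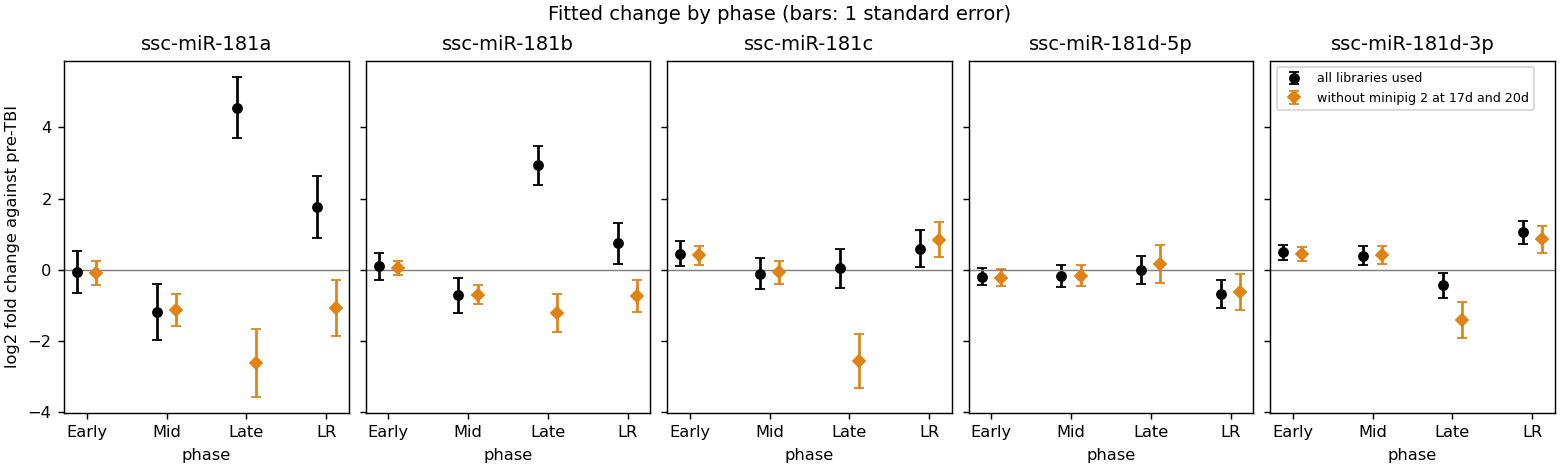
Log2 fold change of each member against pre-TBI by phase (bars, 1 SE) over all 24 libraries and without those of minipig 2 at 17d and 20d. The Late values of ssc-miR-181a and ssc-miR-181b turned from 4.56 to −2.63 and from 2.93 to −1.23, while the LR value of ssc-miR-181d-3p stayed above 0 in both.

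In minipig 2 at 17d few miRNAs moved as far. Its ssc-miR-181a had the second largest rise over the animal's own baseline among 411 rows and ssc-miR-181b the sixth, when the median of all rows was −0.05. In the same draw of minipig 1 they ranked 372 and 285, with a median of 0.21. At 20d ssc-miR-181a ranked 2 and ssc-miR-181b 17 in minipig 2, and 340 and 302 in minipig 1. The other members did not share the rise of minipig 2 at 17d. There ssc-miR-181c changed by 0.74 (rank 64), ssc-miR-181d-3p by 0.04 (rank 186) and ssc-miR-181d-5p by −0.66 (rank 320).

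**Figure D3:**
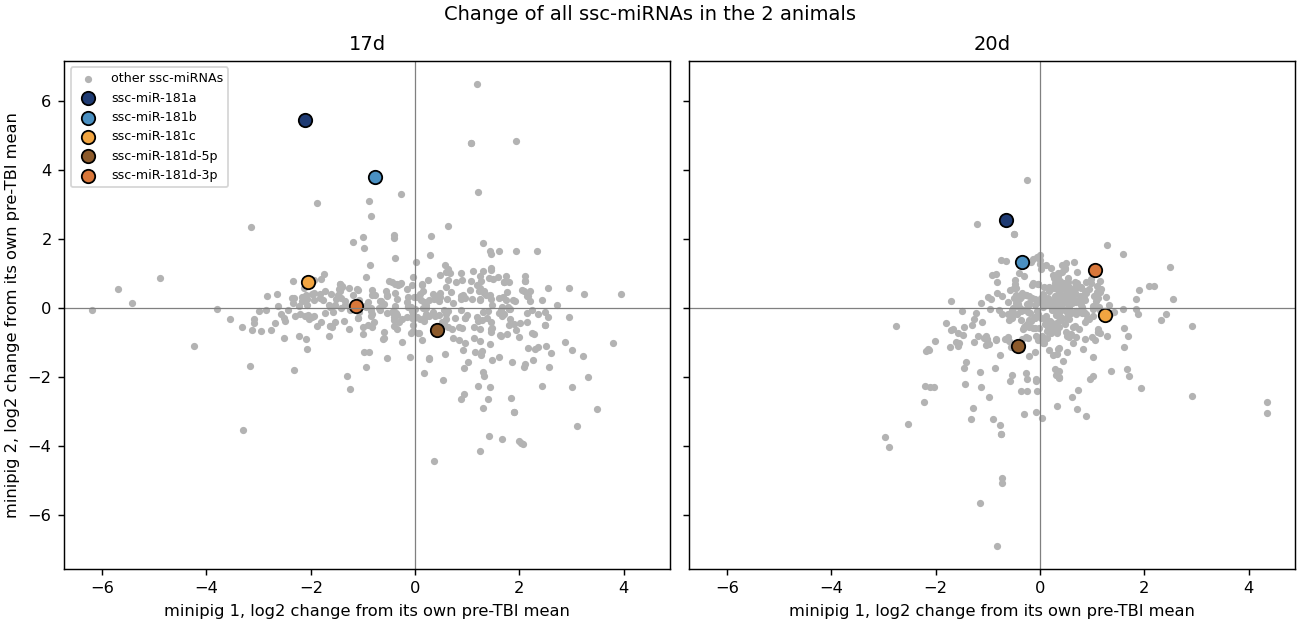
Change of each of the 411 ssc-miRNAs from its own pre-TBI mean (log2) in minipig 1 (horizontal) and minipig 2 (vertical), 17d on the left and 20d on the right, with the 5 miR-181 members coloured. At 17d ssc-miR-181a lies at −2.11 and 5.45 and ssc-miR-181b at −0.78 and 3.79, both in the upper left.

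Earlier in the course the miR-181a and miR-181b rows were high at 3d and low in Mid, in both animals with later libraries. At 3d ssc-miR-181a was 11.99 in minipig 1 and 12.36 in minipig 2, and ssc-miR-181b was 10.42 and 10.31, each above all 6 pre-TBI libraries, as were both 3d libraries for 7.06% of all rows. The 3d fold changes, 0.81 ± 0.94 and 0.68 ± 0.60 on the log2 scale, did not pass (SE, edgeR's quasi-likelihood test, adjusted p = 0.910 for both). In Mid, ssc-miR-181a was 8.31 (13 counts) and 10.31 in minipig 1 at 10d and 14d, and 10.91 and 10.18 in minipig 2, each below both pre-TBI draws of its own animal, which held in all 4 libraries for 3.89% of all rows. The lowest, 219 CPM, had a 95% Poisson interval of 117 to 375, which covers counting error only. Mid levels of ssc-miR-181b were 8.77 and 8.93 in minipig 1 and 8.66 and 9.36 in minipig 2. All 4 were below all 6 pre-TBI libraries, which was the case for 1.22% of all rows. The fitted Mid changes of −1.19 ± 0.78 and −0.73 ± 0.50 did not pass (SE, edgeR's quasi-likelihood test, adjusted p = 0.885 for both), where 0% of rows were called and 3.16% were lower at an unadjusted p under 0.05. Over Early as a whole the levels overlapped pre-TBI, with ssc-miR-181a between 10.44 and 12.36 (median 10.98) and ssc-miR-181b between 9.19 and 10.42 (median 9.66), and log2 fold changes of −0.08 ± 0.59 and 0.09 ± 0.39. Mid against Early, with 0% of rows called, gave −1.12 ± 0.73 and −0.82 ± 0.47 (SE, edgeR's test, adjusted p = 0.344 and 0.284).

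The ratio of miR-181a to miR-181b was also high in minipig 2 at the end. A ratio of 2 counts from 1 library needs no scaling between libraries, although its level depends on how well each sequence is captured. Pre-TBI there were 2.06 to 4.64 counts of ssc-miR-181a for each of ssc-miR-181b (median 3.30). In minipig 2 the ratio was 10.4 at 17d and 7.67 at 20d, above every other library. In minipig 1 it was 1.22 at 17d, from 11 and 9 counts, and 2.53 at 20d. Over 24 libraries the log2 CPM of the pair correlated with Pearson's r = 0.94 and Spearman's rho = 0.82, and over the 22 libraries without minipig 2 at 17d and 20d with r = 0.79. These and the other correlations are descriptions over libraries that share 3 animals and the scaling.

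**Figure D4:**
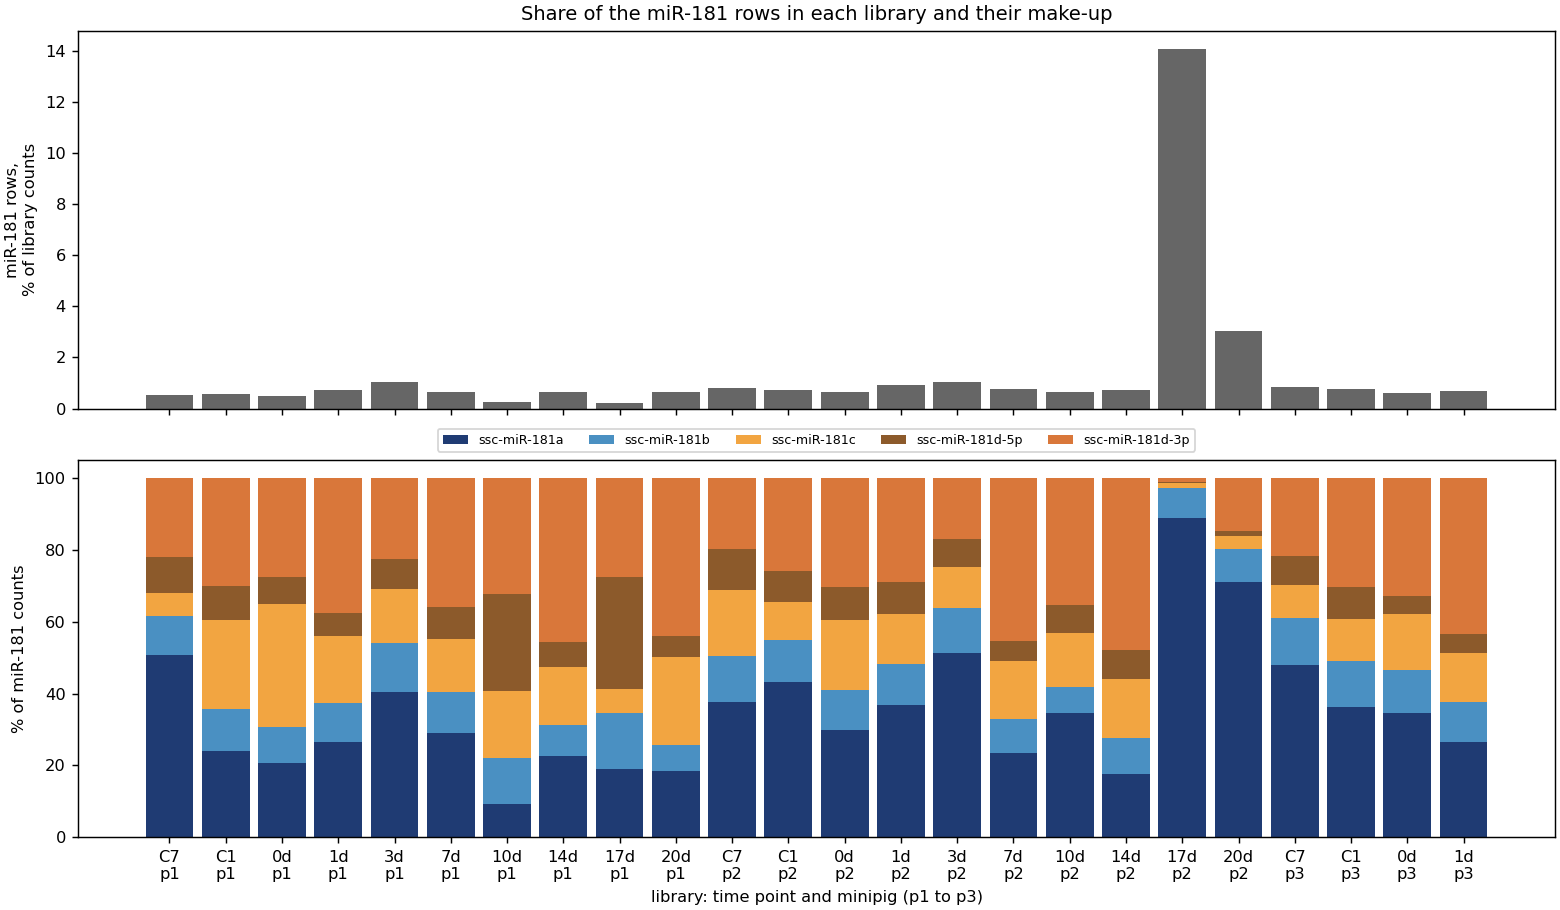
Share of all library counts taken by the 5 miR-181 rows (top) and their make-up (bottom), 1 bar per library, ordered by minipig (p1 to p3) and time point. The family took 0.199% to 1.04% of 22 libraries, 14.1% of minipig 2 at 17d and 3.05% of minipig 2 at 20d, and in these last libraries most of its counts were ssc-miR-181a.

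The arms of the miR-181d hairpin stood on opposite sides of their pre-TBI range in LR. The 3p arm, usually called the passenger strand when the 5p arm is the guide, was the more abundant in the table, with 14731 counts in all against 3341 for ssc-miR-181d-5p. Pre-TBI ssc-miR-181d-3p lay between 10.41 and 11.00 log2 CPM (median 10.65). In Early it was 10.78 to 11.68 (median 11.14), and 8 of 10 libraries were above the highest pre-TBI value. The Early change of 0.49 ± 0.22 reached an unadjusted p of 0.0344 and an adjusted p of 0.230 (SE, edgeR's quasi-likelihood test), in a comparison where 0% of rows were called and 5.11% were higher at an unadjusted p under 0.05. In Mid it was 10.07 and 11.32 in minipig 1 and 10.94 and 11.61 in minipig 2, and in Late 9.58 (16 counts) and 10.69. Neither phase passed, with log2 fold changes of 0.38 ± 0.27 and −0.45 ± 0.36.

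In LR ssc-miR-181d-3p was 11.78 in minipig 1 (1172 counts) and 11.73 in minipig 2 (2452 counts), both above every pre-TBI library, as were 6.57% of all rows. Unlike miR-181a, it was about as high in one animal as in the other, 2.09-fold and 2.12-fold above their own pre-TBI means. The fit gave 1.05 ± 0.32 (SE, edgeR's quasi-likelihood test, unadjusted p = 0.00332, adjusted p = 0.337), with 3.65% of rows higher at an unadjusted p under 0.05. From Late to LR it differed by 1.49 ± 0.43 (SE, edgeR's test, adjusted p = 0.0714). With a term for the animal that difference was 1.52 and passed, with an adjusted p of 0.0497 in edgeR's test and 5.6% of all rows called. With that term on thinned counts it was 1.16 and did not pass (edgeR's test, adjusted p = 0.106), where 0% of rows were called, and without minipig 1 at 17d it was 0.92 (adjusted p = 0.456). DESeq2's Wald test called it (1.48, adjusted p = 0.00875) among the 16.2% of rows it called. The summed share of the 5 liver rows in these libraries was 0.927% of counts in minipig 1 and 1.23% in minipig 2, above the pre-TBI range of 0.419% to 0.678%, although the rows did not move one way: 1 was higher and 1 lower at an unadjusted p under 0.05, with a median log2 fold change of 0.20. Library depth ran alongside this row, since over 24 libraries its level correlated with the total count at r = 0.55. The part of either in the differences was not tested.

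The 5p arm lay within or below its pre-TBI range in all but 1 library. Pre-TBI ssc-miR-181d-5p lay between 8.99 and 9.80 log2 CPM (median 9.30), and in Early between 8.40 and 9.72 (median 9.06), with 5 of 10 libraries below the lowest pre-TBI value. In Mid it was 9.83 and 8.62 in minipig 1 and 8.74 and 9.09 in minipig 2, and in Late 9.75 (18 counts) and 8.81 (28 counts). In LR it was 8.92 and 8.34, both below every pre-TBI library, as were 2.68% of all rows. None of the phases passed. The LR change was −0.68 ± 0.39 (SE, edgeR's quasi-likelihood test, unadjusted p = 0.0928, adjusted p = 0.593), and the Early, Mid and Late changes were −0.20 ± 0.24, −0.19 ± 0.31 and −0.01 ± 0.40.

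Set against each other within libraries, the arms were further apart in LR. Pre-TBI there were 1.74 to 3.35 counts of ssc-miR-181d-3p for each of ssc-miR-181d-5p (median 2.86). In LR the ratio was 7.37 in minipig 1 and 10.7 in minipig 2, above all 6 pre-TBI libraries. It was also above the pre-TBI range in 6 of 10 Early libraries, up to 8.51 in minipig 2 at 7d, and in 3 of 4 Mid libraries. In minipig 1 it was 1.18 at 10d and 0.889 at 17d, from 16 to 45 counts per arm. In minipig 2 at 17d it was 3.75, above the pre-TBI range, from 105 and 28 counts. Across 24 libraries the levels of the arms correlated at r = −0.66 (rho = −0.62). The ratio of the arms correlated with the total count at r = 0.44 (rho = 0.35). The LR libraries were deep, at 401408 counts in minipig 1 and 550316 in minipig 2. The part of depth in the ratio was not tested.

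**Figure D5:**
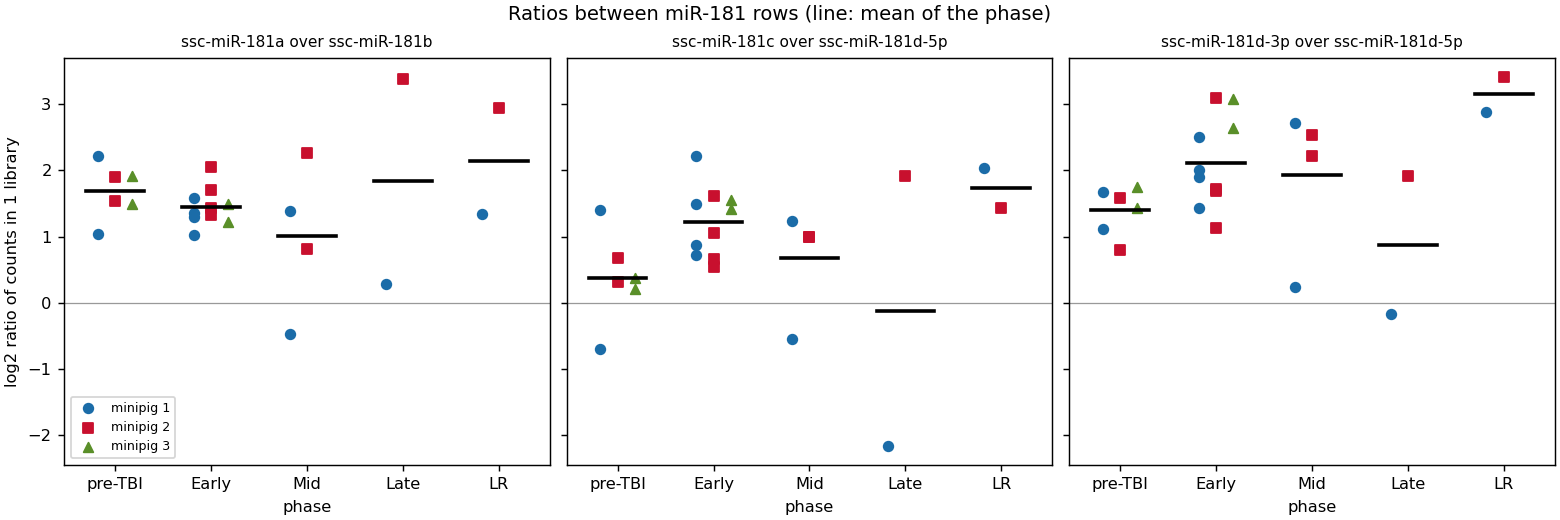
Log2 ratio of the counts of 2 miR-181 rows within each library, by phase, 1 point per library coloured by minipig, with the phase mean as a line. For ssc-miR-181d-3p over ssc-miR-181d-5p both LR libraries (2.88 and 3.42) lie above the highest pre-TBI value of 1.75, while the miR-181a to miR-181b ratio is high in LR in minipig 2 alone (2.94 against 1.34).

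The neighbour of miR-181d, ssc-miR-181c, varied widely before irradiation, from 8.65 (8 counts) to 10.72 log2 CPM with a median of 9.53. In Early it lay between 9.86 and 11.18 (median 10.17), inside or above that range, with the highest value in minipig 1 at 0d. Mid levels were 9.29 and 9.84 in minipig 1 and 9.73 and 10.06 in minipig 2. In Late it was 7.63 in minipig 1 (4 counts) and 10.69 in minipig 2 (105 counts), and in LR 10.93 and 9.75. No phase passed for this member. The log2 fold changes were 0.45 ± 0.34 in Early, −0.12 ± 0.43 in Mid, 0.04 ± 0.55 in Late and 0.59 ± 0.52 in LR (SE, edgeR's quasi-likelihood test, adjusted p = 0.422, 0.978, 0.982 and 0.658). Without minipig 2 at 17d the Late value was −2.30 and was called lower (edgeR's test, adjusted p = 0.0423), a value that rests on the 4 counts of the remaining library (137 CPM, 95% Poisson interval 37.4 to 351). In that setting 26.3% of all rows were called. The counts of ssc-miR-181c for each of ssc-miR-181d-5p were 0.615 to 2.65 pre-TBI (median 1.27) and 4.10 and 2.69 in LR. In Early this ratio was 1.45 to 4.66, with 5 of 10 libraries above the pre-TBI range, and in Mid 0.684 to 2.36. In Late it was 0.222 in minipig 1 and 3.75 in minipig 2. Although the loci of miR-181c and miR-181d adjoin, ssc-miR-181c and ssc-miR-181d-5p correlated at r = −0.21 over 24 libraries. The value was 0.94 for miR-181a with miR-181b and 0.60 for ssc-miR-181c with ssc-miR-181d-3p.

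By single time point, 2 of 5 members were called against pre-TBI at 17d, ssc-miR-181a and ssc-miR-181b, with an adjusted p of 0.00353 each in edgeR's quasi-likelihood test and 3.89% of all rows called higher (4.87% in either direction). The 17d libraries are those of Late, where the changes were −2.34 and −0.94 without minipig 2 at 17d. No member was called at the other 7 time points, and the share of all rows called there was 0.243% on day 14, 0.73% on day 20, 1.22% on day 3 and otherwise 0%. Of these, ssc-miR-181d-3p passed an unadjusted p of 0.05 at 1d (0.69 ± 0.26), 14d (0.76 ± 0.30) and 20d (1.05 ± 0.29 on the log2 scale, SE), where 3.41%, 4.14% and 4.14% of rows were higher at that threshold.

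The rows that followed each member most closely differed within the family. For ssc-miR-181a the 5 nearest by Pearson correlation of log2 CPM over 24 libraries were ssc-let-7f (0.90), ssc-let-7a (0.85), ssc-miR-30d, ssc-miR-30e-5p and ssc-let-7e (0.83 each). For ssc-miR-181b they were ssc-let-7f (0.88), ssc-miR-30e-5p (0.83), ssc-miR-26a (0.82), ssc-miR-30d and ssc-let-7e (0.81 each). Without minipig 2 at 17d and 20d ssc-let-7f kept 0.80 and 0.77, while ssc-let-7e had 0.42 and 0.18. The nearest of ssc-miR-181c were ssc-miR-1271 (0.87), ssc-miR-4331 (0.86), ssc-miR-671-5p and ssc-miR-9805-3p (0.84 each) and ssc-miR-6782-3p (0.83). The nearest of ssc-miR-181d-3p were ssc-miR-4335 (0.88), ssc-miR-7142-5p and ssc-miR-331-5p (0.87 each), ssc-miR-9821-5p and ssc-miR-99b (0.86 each). For ssc-miR-181d-5p the values were lower, led by ssc-miR-19b (0.72), with ssc-miR-497, ssc-miR-122, ssc-miR-186 and ssc-miR-146b at 0.70 each.

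Since the family is known from lymphoid cells, miRNAs typical of blood and tissue cells were read beside it. The lymphocyte pair, ssc-miR-150 and ssc-miR-342, made up 0.184% of the minipig 2 library at 17d and 0.160% at 20d, inside the pre-TBI range of 0.119% to 0.187%. In minipig 1 it made up 0.0720% at 17d, below that range, and 0.119% at 20d, at its lower end. The sum hides opposite changes in minipig 2 at 17d. From that animal's own pre-TBI mean, ssc-miR-150 was at 1.23 and ssc-miR-342 at −0.72 (log2). In minipig 1 at 17d both were below its own mean, at −0.87 and −0.60. Against pre-TBI, 0 of 2 passed in any phase (Late, 0.58 ± 0.34 and −0.66 ± 0.46, SE, edgeR's quasi-likelihood test, adjusted p = 0.298 and 0.387). At 3d, when miR-181a and miR-181b stood above their pre-TBI range, ssc-miR-342 rose by 1.50 ± 0.27 (SE, edgeR's test, adjusted p = 0.00947) and ssc-miR-150 was at −0.01 ± 0.35, with 1.22% of all rows called. The haematopoietic arms ssc-miR-142-5p and ssc-miR-142-3p were at −1.73 ± 0.55 and −0.72 ± 0.42 in Mid (SE, edgeR's test, unadjusted p = 0.00416 and 0.102, adjusted p = 0.808 and 0.824), the phase in which all 4 libraries of ssc-miR-181b were low. Of the 3 erythroid rows, ssc-miR-451 was at −2.42 ± 0.89 in Mid and −2.74 ± 1.26 in Late (SE, edgeR's test, adjusted p = 0.808 and 0.192). The animals differed at 17d. From its own pre-TBI mean, ssc-miR-451 was at 0.37 in minipig 1 and −4.44 in minipig 2, and ssc-miR-144 at 0.94 and −2.50. Only ssc-miR-486 was lower in both, at −1.31 and −1.98.

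In the remaining lists the library of minipig 2 at 17d lay inside or below the pre-TBI range. Its 5 inflammatory rows (miR-146 and miR-155) took 0.274% of counts, below the pre-TBI range of 0.629% to 9.69%, and they took 15.2% in minipig 1, where miR-181a was low. The 9 platelet-enriched rows took 1.25% in minipig 2 and 0.751% in minipig 1, both below the pre-TBI range of 1.68% to 3.62%. The 5 liver rows took 0.309% and 0.346%, below their own range, and the 8 muscle and heart rows 0.259% and 0.305%, inside theirs (0.130% to 0.559%). No row of any of the 7 lists was called in a phase against pre-TBI. By single time point, edgeR's quasi-likelihood test called ssc-miR-342 and the platelet-enriched ssc-miR-191 (2.08 ± 0.45, SE, adjusted p = 0.0249) and ssc-miR-126-5p (1.66 ± 0.37, adjusted p = 0.0282) higher at 3d, and ssc-miR-191 lower at 17d (−2.11 ± 0.56, adjusted p = 0.0349). At 20d it called ssc-miR-126-5p (1.75 ± 0.37) and the liver row ssc-miR-192 (1.48 ± 0.30) higher, each with an adjusted p of 0.0302. Rows lower there that passed an unadjusted p of 0.05 but no adjustment included 1 of the 8 muscle and heart rows, the liver row ssc-miR-122 (−1.39 ± 0.50, edgeR's test, adjusted p = 0.448) and the platelet-enriched ssc-miR-191 and ssc-miR-28-3p (−1.28 ± 0.53 and −0.96 ± 0.42, adjusted p = 0.550 for both). Of these rows, ssc-miR-126-5p and ssc-miR-28-3p were named after their values were seen. The Late medians were −0.04 for lymphocyte, −0.45 for haematopoietic, 1.58 for inflammatory, −1.65 for erythroid, −0.61 for platelet-enriched, 0.10 for liver and 0.39 for muscle and heart rows, against 0.08 over all rows (log2 fold change).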

How the data were processed

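Small RNA libraries of plasma, 1 per animal and draw, were made with a TruSeq small RNA kit. The authors used bcl2fastq and Cutadapt, aligned to the pig genome (named ssc5) and miRBase pig miRNAs with Bowtie (Bowtie2 2.2.3.0 in the submitters' processing notes), and quantified with miRDeep2. The deposited values are raw counts for 411 miRNAs. The paper states a low-count filter before its own tests. Whether that filter set the deposited rows is not given in the sources used here. Groups came from the time point labels.

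Libraries under 1000 counts were left out. Rows above 0.5 CPM in at least 3 libraries (all 411) were tested with edgeR 4.0.16 (R 4.3.3), quasi-likelihood, TMM scaling, all 5 groups in 1 fit, Benjamini-Hochberg over all rows. Single time points, and C1 against C7, had fits of their own. A call is an adjusted p under 0.05. Prior counts were 2 for log2 CPM and 0.125 for fold changes. P-values measure the spread between libraries, which are repeated draws of 3 animals. Libraries of one animal deviated together (mean correlation of deviations 0.169 over 78 pairs of different phases, −0.102 over 130 pairs of different animals), so a term for the animal was an alternative. The common biological coefficient of variation was 0.496, and an exact Poisson interval at 95% is given for 2 of the low counts. Over 68 pairs of libraries of one phase, chi-square divided by its degrees of freedom was at least 21.8, so none was treated as a duplicate. On simulated counts for Early against pre-TBI, 100% of 100 changed and 1.29% of unchanged rows of 411 were called. The changes put in were 2 up or down on the log2 scale, with 1 common spread and independent libraries. The simulation thus does not show how smaller changes or repeated draws of an animal would fare. Alternatives were other scalings, DESeq2 1.42.0, other filters and baselines, thinning to 24341 counts, only the groups compared, and leaving out animals or libraries. Named were all members, the 5 rows nearest to each by correlation, and rows with the most counts of each companion list. The members, lists and tests were chosen with earlier results of these data known.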

Additional observations from a re-analysis of the deposited data

Results flagged for a closer look

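For ssc-miR-181a and ssc-miR-181b the step between neighbouring phases was itself tested and passed: Late against Mid gave log2 differences of 5.75 and 3.66, both of which changed sign without minipig 2 at 17d. Neither was called when only Late and Mid libraries were fitted (5.81 and 3.73, edgeR's quasi-likelihood test, adjusted p = 0.296 and 0.274), where 0% of all rows were called. The 2 animals also went opposite ways for these rows, and the share of all rows that did so was not counted. Other rows did so too. From its own pre-TBI mean, ssc-miR-95 was at 3.10 (17d) and 4.35 (20d) in minipig 1. In minipig 2 it was at −3.42 and −3.04. Averaged over 17d and 20d, the change from the animal's own pre-TBI mean was higher in minipig 2 than in minipig 1 by 5.37 (log2) for ssc-miR-181a and by 3.11 for ssc-miR-181b, with both libraries of minipig 2 above and both of minipig 1 below their means. That difference between animals was not tested, since each has 1 library per draw. Among the 15 sets of 4 to 10 libraries that a member and a phase define (pre-TBI, Early and Mid), none had a highest or lowest library whose gap to its neighbour, as a share of the whole range, passed Dixon's 2-sided 95% critical value. The largest share among the sets of 4 was 0.72, for ssc-miR-181a in Mid, where minipig 1 at 10d was the lowest. Among the sets of 6 it was 0.60, for ssc-miR-181a pre-TBI, followed by 0.57 for ssc-miR-181d-5p. Among the sets of 10 it was 0.45, for ssc-miR-181c in Early. The critical value falls as sets grow. Late and LR were too small to be examined.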

How the results depend on the processing

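Of 20 changes of a member by phase against pre-TBI, 2 were called, ssc-miR-181a and ssc-miR-181b in Late. Each was lost in the fit of only these groups (4.56 and 2.94) and with C7 alone as baseline (4.37 and 2.88), where 0% of all rows were called, and turned without minipig 2 at 17d and 20d, to −2.63 (then called lower by edgeR's test, adjusted p = 0.0449) and −1.23 (adjusted p = 0.0911). That omission, chosen after seeing the data, also called lower in Late ssc-miR-181c (−2.57) and ssc-miR-181d-3p (−1.42), with ssc-miR-181d-5p at 0.15. In LR it gave −1.09 and −0.73 for ssc-miR-181a and ssc-miR-181b. In Late against Mid it called ssc-miR-181c (−2.49) and ssc-miR-181d-3p (−1.83) lower, with −1.49 and −0.51 for ssc-miR-181a and ssc-miR-181b, and in LR against Late it called ssc-miR-181c (3.42) and ssc-miR-181d-3p (2.26) higher, with 1.54 and 0.49 for the other pair. Late then holds 1 library, and of all rows 26.8% were called in Late, 19.0% in Late against Mid and 20.7% in LR against Late. Late against Mid of ssc-miR-181a and ssc-miR-181b also lost its calls in the fit of only those groups (5.81 and 3.73).
Values near 0 that changed sign, with causes not tested, were ssc-miR-181a in Early with C1 alone (0.14), ssc-miR-181b in Early with thinned counts (−0.14; −0.15 with the replicate block added) and with C7 alone (−0.01), ssc-miR-181c in Mid with C7 alone (0.08), ssc-miR-181c in Late by library size (−0.05), with the replicate block (−0.06), with the block and thinning (−0.10) and with C1 alone (−0.12), and ssc-miR-181d-5p in Late with at least 10 counts in every library (0.05), thinned (0.05) and with C1 alone (0.07), and in Late against Mid by library size (−0.05). By library size alone the median of all rows in Late moved from 0.08 to −0.21.
The replicate block for the animal kept both Late calls (3.96 and 2.69) and changed the call only of ssc-miR-181d-3p in LR against Late (1.52). The filter at 10 counts left no value for ssc-miR-181b and ssc-miR-181c.
Leaving out 1 animal or library at a time, log2 fold changes in Late ran from −2.59 to 5.57 for ssc-miR-181a, −1.18 to 3.89 for ssc-miR-181b, −2.48 to 0.91 for ssc-miR-181c, −0.56 to 0.43 for ssc-miR-181d-5p and −1.45 to 0.01 for ssc-miR-181d-3p. In LR they ran from −1.09 to 2.64, −0.73 to 1.40, −0.13 to 1.00, −1.00 to −0.48 and 0.85 to 1.15 in that order. In Early, ssc-miR-181b ran from −0.04 to 0.15, and in Mid ssc-miR-181c from −0.26 to 0.11 and ssc-miR-181d-5p from −0.51 to 0.11. Late against Mid ran from −1.15 to 6.76, −0.42 to 4.65, −2.34 to 0.97, −0.29 to 0.62 and −1.60 to −0.36, and LR against Late from −5.67 to 4.10, −3.67 to 1.68, −0.89 to 3.48, −1.11 to −0.32 and 0.92 to 2.33. Calls gained or reversed by such omissions, beside those in the report, were ssc-miR-181d-3p in Late against Mid (−1.52 without minipig 2 at 17d) and, in LR against Late, ssc-miR-181c and ssc-miR-181d-3p (2.88 and 2.18 without that library, 3.48 and 2.33 without minipig 2). Of all rows, 19.5%, 36.3% and 16.1% were called in these settings, in that order. In LR, ssc-miR-181a was at 2.58 without minipig 1, from 1 LR library. Among 1188 alternative values in all, 1094 kept direction and call, 73 changed sign, 15 gained a call and 6 lost one. For each result 27 of the 39 or 40 alternatives left out 1 animal or library, many of them outside the groups compared. Most results had no call to lose, so these totals do not measure how stable the calls were.
Late and LR hold 2 libraries each, and Late in minipig 1 rests on 4 to 18 counts per member.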

Other observations

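Other miRNAs rose with miR-181a in minipig 2, and they are named here after their values were seen. At 17d the largest rise over that animal's own pre-TBI mean was that of ssc-miR-182, by 6.48 in log2 CPM. Next came ssc-miR-204 (4.83), ssc-miR-9-1 and ssc-miR-9-2 (4.77 each), ssc-miR-9 (3.35), ssc-let-7f (3.29), ssc-let-7e (3.09) and ssc-let-7a (3.05), which made up the first 10 with ssc-miR-181a and ssc-miR-181b. At 20d ssc-miR-182 (3.69), ssc-miR-181a (2.53), ssc-miR-204 (2.44) and ssc-miR-9-1 and ssc-miR-9-2 (2.14 each) were again the first 5. These are single libraries and no test applies to them.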
